A study of Mus musculus with 6 samples.

Results

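The BCL-2 family genes described here are 10 genes, picked by their symbols in the array's annotation, which name 34 of the 45037 probe sets tested. They are Mcl1, Bcl2 and Bcl2l1, which promote survival, Bak1, which permeabilizes mitochondria, and Bcl2l11, Bid, Bad, Pmaip1, Bmf and Bik, which encode BH3-only proteins. A probe set is a group of short probes meant to measure transcripts of a gene. RNA was taken from Wnt1-YL cells, a line established from 1 invasive mammary carcinoma of an FVB/n mouse with the MMTV-Wnt1 transgene, in which a mammary tumor virus promoter drives Wnt1. An shRNA that targets Sca-1 was present in the shSca-1 cells (3 arrays) and one that targets luciferase in the shLuc cells (3 arrays). Both shRNAs came in pLKO lentiviral vectors with puromycin selection, and all cells were cultured with serum, insulin and EGF. The comparison asks whether knockdown of Sca-1, a GPI-anchored surface protein, goes with other levels of the genes that set the threshold for cell death.

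In background, BCL-2 proteins decide whether a mitochondrion releases cytochrome c. MCL-1, BCL-2 and BCL-XL (from Bcl2l1) hold BAK and BAX in check, and BH3-only proteins such as BIM (from Bcl2l11), BID, BAD, NOXA (from Pmaip1), BMF and BIK either bind the survival proteins or activate BAK and BAX directly. In the mammary gland, these proteins are known for their part in the death of epithelial cells during involution and after loss of contact with matrix.

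Ly6a, which encodes Sca-1, had an intensity of 285, 314 and 306 in shSca-1 cells, against 7646, 7362 and 2843 in shLuc cells. Its log2 fold change (in every case shSca-1 minus shLuc) was -4.17 (SE 0.36, limma adjusted p = 0.051). Intensities are the authors' dChip model values, not logged, and the median probe set of an array had 37.3 to 40.6. The array of shLuc replicate 3 stood apart from the others. The 8 luminal epithelial markers summed to 17138 on it, against 365 to 385 on the shSca-1 arrays and 322 and 393 on the other shLuc arrays. Krt18, a luminal keratin, was 65.2, 37.7 and 39.98 in shSca-1 cells and 51.6, 46.1 and 7175 in shLuc cells. The 6 basal markers summed to 29741 to 33587 on the shSca-1 arrays, to 34848 and 34710 on shLuc replicates 1 and 2 and to 19087 on shLuc replicate 3. Values are therefore given with and without this array, whose luminal and basal markers differ from those of the other arrays of the line. Of the 6 basal markers, 2 keratins, Krt5 and Krt14, were higher on every shSca-1 array and 1, Krt17, was lower. Krt5 was 10290, 10047 and 11431 in shSca-1 cells, against 9576, 9968 and 3141 in shLuc cells. Without shLuc replicate 3, Krt5 and Krt14 had log2 fold changes of 0.11 and 0.12. Krt17, Lgals7, Acta2 and Trp63 then had -0.80, -0.77, -0.66 and -0.64. Of these, Krt17 and Acta2 passed an adjusted p under 0.05 (limma adjusted p = 0.037 for each). The median over the 6 basal markers was -0.65 without that array and -0.23 on 6 arrays. Krt17, also a keratin, was 831, 825 and 1171 in shSca-1 cells, against 1583, 1655 and 1454 in shLuc cells. It was the 1 marker past the study's thresholds (p under 0.01 and over 1.5-fold), with a log2 fold change of -0.75 (unadjusted p = 0.0019, limma adjusted p = 0.23). The 6 fibroblast markers, none of them at 64 or more on every array, summed to 330, 331 and 363 in shSca-1 cells and 132, 115 and 263 in shLuc cells. These markers did not move together. On the shSca-1 arrays Pdgfrb was 157, 170 and 3.26, while Pdgfra was 96.2, 108 and 292. Log2 fold changes were above 0 for Pdgfra, Pdgfrb and Thy1 and below 0 for Dcn, Lum and Fap. The sums on shSca-1 and shLuc arrays were 289 to 296 and 276 to 287 for 5 leukocyte markers, 120 to 130 and 105 to 132 for 4 endothelial markers, and 17.2 to 29.4 and 14.4 to 28.1 for 2 adipocyte markers. The part of these markers in the results was not tested. Fewer cells of a kind and less RNA per cell cannot be told apart in such bulk samples.

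Survival genes had lower values and Bak1 had higher values in shSca-1 cells, each by under 1.5-fold on its brightest probe set, and limma called none of the 34 probe sets at an adjusted p under 0.05. Lower values on every shSca-1 array than on any shLuc array were found for 9 of the 34, all of them probe sets of Mcl1, Bcl2 and Bcl2l1. The share of all probe sets that were lower in this way was 9.81%. Another 2 of the 34, of Bak1 and Bik, were higher on every shSca-1 array, beside 6.7% of all probe sets. Brighter probe sets were more often without overlap. Among those with a mean log2 value of 6 or more, 14.9% were lower and 9.07% higher. Of the 23 member probe sets at that level, 9 were lower and 1 was higher. At an unadjusted p under 0.05, limma gave 9 lower and 1 higher of the 34 (26.5% and 2.94%), beside 5.98% and 3.28% of all probe sets. The shares were 9.94% and 4.83% among all probe sets with a mean log2 value of 6 or more. The count past an adjusted p under 0.05 was 0 of 34 in limma and by the methods' t-test, and 0% of all 45037 probe sets in limma. Several probe sets measure the same gene, so these counts are not counts of independent genes. Without shLuc replicate 3 the count at an adjusted p under 0.05 was still 0 of 34, beside 2.76% of all probe sets, and at an unadjusted p under 0.05 there were 10 lower (10.2% of all probe sets) and 1 higher (6.1%). In that comparison 13 were lower without overlap (19.6% of all probe sets) and 2 higher (14.1%). Among all probe sets with a mean log2 value of 6 or more, 28.9% were then lower without overlap and 18.9% higher.

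**Figure D1:**
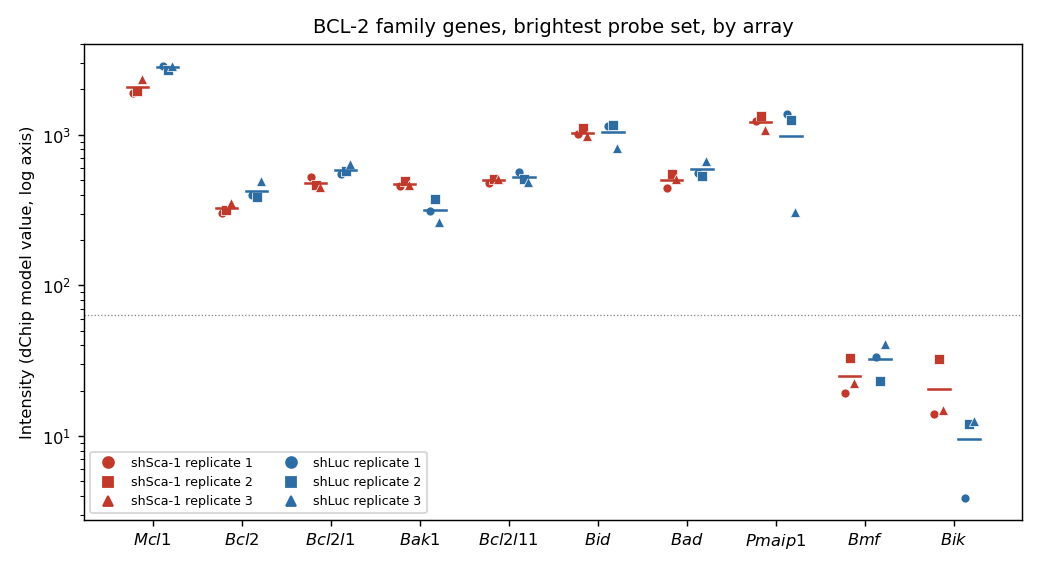
Intensity of 10 BCL-2 family genes on the 6 arrays, each by its brightest probe set (log axis). Each point is an array, with shSca-1 in red and shLuc in blue, bars are means of 3 arrays and the dotted line is an intensity of 64. Mcl1 and Bcl2 lie lower and Bak1 higher on all shSca-1 arrays, and Pmaip1 is 305 on shLuc replicate 3 only.

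Mcl1, which encodes a short-lived survival protein that binds BIM, NOXA and BAK, had lower values in shSca-1 cells on all 6 of its probe sets. On the brightest of them its intensity was 1888, 1965 and 2339 in shSca-1 cells, against 2849, 2701 and 2881 in shLuc cells. The 3 shSca-1 arrays lay below the 3 shLuc arrays, and shSca-1 replicate 3 was the closest to them. The means were 2064 ± 242 and 2811 ± 95.9 (SD, n = 3 each), a log2 fold change of -0.45 (SE 0.11, 95% interval -0.70 to -0.20, unadjusted p = 0.0037, adjusted p = 0.28). The other 5 probe sets had log2 fold changes between -0.41 and -0.34, and their groups did not overlap either. The closest approach was on the next brightest probe set, where Mcl1 was 993, 1139 and 1216 in shSca-1 cells and 1519, 1476 and 1237 in shLuc cells. All 6 had an unadjusted p between 0.0037 and 0.030. Of the 6 probe sets, 3 carry the suffix _x_at, by which Affymetrix marks probes that may also bind other transcripts, and these had -0.37, -0.35 and -0.36.

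Leaving out shLuc replicate 3 did not alter the direction of Mcl1. The log2 fold changes of the 6 probe sets were then between -0.43 and -0.36, with adjusted p between 0.063 and 0.19 from limma. With array medians subtracted, which raises the shSca-1 arrays relative to the shLuc arrays, 4 of the 6 probe sets were still without overlap, and after quantile normalization all 6 were. The size of the difference, 20.9% to 26.9% lower on the log2 scale's geometric means, was below the 1.5-fold that the study used as a threshold.

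**Figure D2:**
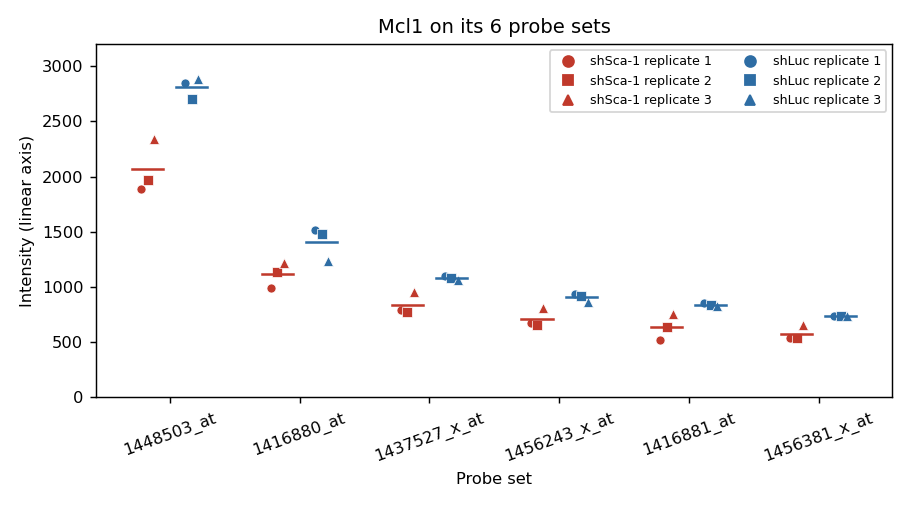
Intensity of Mcl1 on its 6 probe sets, on a linear axis from 0. Points are arrays, with shSca-1 in red and shLuc in blue, and bars are means of 3 arrays. The shSca-1 arrays lie below the shLuc arrays on every probe set, with shSca-1 replicate 3 highest among the shSca-1 arrays on each.

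Bcl2, which encodes the founding survival protein of the family, had log2 fold changes below 0 on all 5 of its probe sets. On the brightest its intensity was 304, 318 and 353 in shSca-1 cells, against 398, 386 and 495 in shLuc cells. The groups did not overlap, and shLuc replicate 3 was the highest array. The means were 325 ± 24.9 and 427 ± 59.9 (SD, n = 3 each), a log2 fold change of -0.39 (SE 0.14, 95% interval -0.71 to -0.06, unadjusted p = 0.027, adjusted p = 0.47). On a dimmer probe set Bcl2 was 109, 101 and 107 in shSca-1 cells and 128, 130 and 145 in shLuc cells, again without overlap, with a log2 fold change of -0.34 (unadjusted p = 0.046, adjusted p = 0.53). Without shLuc replicate 3 these were -0.27 and -0.28 (limma adjusted p = 0.24 and 0.37). The remaining 3 probe sets were at 66.9 or less on every array, and their groups overlapped.

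Bcl2l1, the gene of BCL-XL, had a log2 fold change below 0 on 3 of its 4 probe sets, and groups without overlap on the brightest only. Its intensity there was 523, 462 and 452 in shSca-1 cells, against 550, 571 and 635 in shLuc cells. The groups did not overlap, and shSca-1 replicate 1 and shLuc replicate 1 were the closest pair of arrays. The log2 fold change was -0.29 (SE 0.11, 95% interval -0.56 to -0.02, unadjusted p = 0.038, adjusted p = 0.51), and -0.23 without shLuc replicate 3 (limma adjusted p = 0.29). On the next brightest probe set the values were 90.2, 105 and 90.9 in shSca-1 cells and 97.3, 101 and 99.3 in shLuc cells, which overlapped. After quantile normalization, and with array medians subtracted, no Bcl2l1 probe set was without overlap between the groups.

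Bak1, which encodes the pore-forming effector that MCL-1 and BCL-XL restrain, had higher values in shSca-1 cells. Its intensity was 456, 491 and 462 in shSca-1 cells, against 313, 376 and 262 in shLuc cells. The lowest shSca-1 array was above the highest shLuc array, and the shSca-1 arrays were also closer to each other. The means were 470 ± 18.9 and 317 ± 57.2 (SD, n = 3 each), a log2 fold change of 0.58 (SE 0.15, 95% interval 0.22 to 0.94, unadjusted p = 0.0063, adjusted p = 0.32). As a fold difference this is just under the study's threshold of 1.5. It was 0.45 without shLuc replicate 3, which had the lowest Bak1 (limma adjusted p = 0.077). A dim probe set, whose suffix _s_at marks probes shared by several transcripts, was between 21.4 and 49.2 on all arrays and its groups overlapped. With groups of 3, permuting the array labels cannot give a two-sided p below 0.1. Groups without overlap reach that limit by definition, so the lack of overlap is a description and not a test.

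The promoters of the survival genes Mcl1 and Bcl2 and of Bak1 are shown as examples of members whose groups did not overlap on the brightest probe set. Bcl2l1 also met this and has 3 promoters in the table, none with a match to the motifs below, which are not printed. They are the 250 bases before the RefSeq transcript start in GRCm38.p6, printed 5′ to 3′ on the gene's strand, at chr3:95658471-95658720 on the plus strand for Mcl1, chr1:106714291-106714540 on the minus strand for Bcl2 and chr17:27028628-27028877 on the minus strand for Bak1. Capitals mark matches on either strand to GGGCGG (the GC box), TGACG (the core of a cyclic AMP response element), GTAAACA (FoxO), TTCNNNGAA (STAT) or TATAAA (the TATA box).
Mcl1: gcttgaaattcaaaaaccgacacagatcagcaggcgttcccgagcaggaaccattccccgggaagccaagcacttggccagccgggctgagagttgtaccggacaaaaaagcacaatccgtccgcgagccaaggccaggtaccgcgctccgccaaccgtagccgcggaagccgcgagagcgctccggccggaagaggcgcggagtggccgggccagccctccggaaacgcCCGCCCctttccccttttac
Bcl2: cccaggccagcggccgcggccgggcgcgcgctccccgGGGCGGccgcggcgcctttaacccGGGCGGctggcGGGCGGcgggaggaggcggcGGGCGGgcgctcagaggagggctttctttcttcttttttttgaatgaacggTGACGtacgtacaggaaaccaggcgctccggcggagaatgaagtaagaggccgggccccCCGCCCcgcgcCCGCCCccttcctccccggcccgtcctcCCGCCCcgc
Bak1: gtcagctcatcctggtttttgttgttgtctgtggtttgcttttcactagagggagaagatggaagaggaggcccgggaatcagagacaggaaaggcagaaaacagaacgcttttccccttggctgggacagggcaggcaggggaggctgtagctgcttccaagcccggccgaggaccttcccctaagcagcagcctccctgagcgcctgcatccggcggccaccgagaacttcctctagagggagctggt
Bcl2 held 7 GC boxes and 1 TGACG, Mcl1 held 1 GC box and Bak1 held none of the 5 motifs. Of 32851 promoter windows of the same length, 32.7% held GGGCGG, 17.8% TGACG, 12.4% TATAAA, 7.02% TTCNNNGAA and 3.17% GTAAACA. The matches are a description of letters only, and no match overlapped another.

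Among the BH3-only genes, Pmaip1, and Bcl2l11 on all but its brightest probe set, differed more between shLuc replicate 3 and the other arrays than between shSca-1 and shLuc cells. Pmaip1, the gene of NOXA, which binds MCL-1, had an intensity of 1234, 1338 and 1068 in shSca-1 cells, against 1381, 1258 and 305 in shLuc cells. The other 5 arrays lay between 1068 and 1381, and shLuc replicate 3 was at 24.3% of their mean. The log2 fold change was 0.58 on 6 arrays (SE 0.54, limma adjusted p = 0.79) and -0.13 without shLuc replicate 3 (SE 0.11, limma adjusted p = 0.64), so its sign rests on that array.

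Bcl2l11, the gene of BIM, which binds all survival members, had 5 probe sets that did not agree. On the brightest by mean its intensity was 480, 508 and 506 in shSca-1 cells and 568, 510 and 489 in shLuc cells, and shLuc replicate 3 was within the range of the others. On another bright probe set it was 389, 355 and 538 in shSca-1 cells and 559, 599 and 208 in shLuc cells. There shLuc replicate 3 was at 42.5% of the mean of the other arrays, and on a dimmer probe set at 51.1%. On 6 arrays all 5 log2 fold changes lay between -0.07 and 0.10 (adjusted p between 0.88 and 1.00 from limma). Without shLuc replicate 3 they lay between -0.46 and -0.06, and 3 of the 5 were then lower on every shSca-1 array. The most negative was on the probe set where shLuc replicate 3 was 208, at -0.46 (SE 0.17, unadjusted p = 0.026, adjusted p = 0.22). Bid had lower values on shLuc replicate 3 as well, at 76.1% of the mean of the other arrays on its brightest probe set. Bad had its highest values on that array, at 130% on its brightest probe set.

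**Figure D3:**
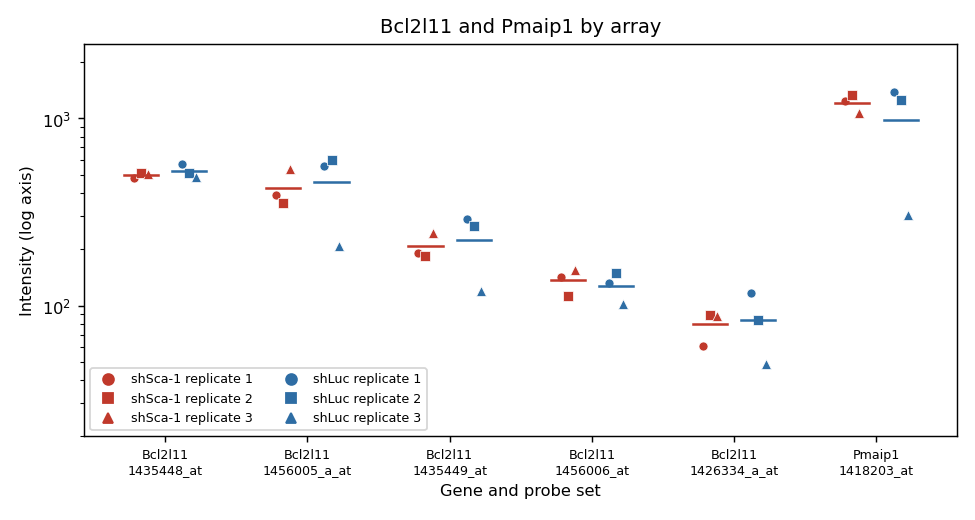
Intensity of Bcl2l11 on 5 probe sets and of Pmaip1 on 1 (log axis). Each point is an array, with shSca-1 in red and shLuc in blue, and bars are means of 3 arrays. On 5 of the 6 probe sets shLuc replicate 3 (blue triangle) is the lowest array, at 305 for Pmaip1.

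Across the members, 3 of the 24 probe sets that reached an intensity of 64 on some array were lower on shLuc replicate 3 than on every other array by over 1.5-fold, those of Pmaip1 and 2 of Bcl2l11, beside 8.43% of 21288 probe sets measured at that level. None of the 24 was higher there by as much, beside 9.71%. The luminal markers were high on this same array, and their part in these low values was not tested.

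Bid and Bad, whose proteins are switched on by caspase-8 cleavage and by loss of growth factor signaling, had groups that overlapped on their brightest probe sets. Bid had an intensity of 1011, 1108 and 975 in shSca-1 cells and 1139, 1154 and 820 in shLuc cells on its brightest probe set, a log2 fold change of 0.01 (95% interval -0.35 to 0.37, limma adjusted p = 0.99). Its other probe sets had 0.08 and 0.16. Bad had 445, 546 and 512 in shSca-1 cells and 559, 533 and 674 in shLuc cells, a log2 fold change of -0.23 (95% interval -0.55 to 0.09, limma adjusted p = 0.66). Without shLuc replicate 3, Bid had -0.15 and Bad -0.13 (limma adjusted p = 0.41 and 0.63).

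Bmf and Bik, BH3-only genes linked to loss of matrix contact and to the endoplasmic reticulum, were dim. All 6 of their probe sets were under 64 on every array, and Bmf reached at most 40.5 and Bik at most 32.5. Bik was 14.0, 32.5 and 14.8 in shSca-1 cells and 3.87, 12.1 and 12.5 in shLuc cells on its brightest probe set. These groups did not overlap, but shSca-1 replicate 1 was close to shLuc replicate 3, and the log2 fold change was 1.17 (95% interval -0.24 to 2.58, limma adjusted p = 0.61). The other Bik probe sets had -0.38 and 0.14. With intensities under 64 set to 64, no difference could be left for either gene, since all their values became 64.

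**Figure D4:**
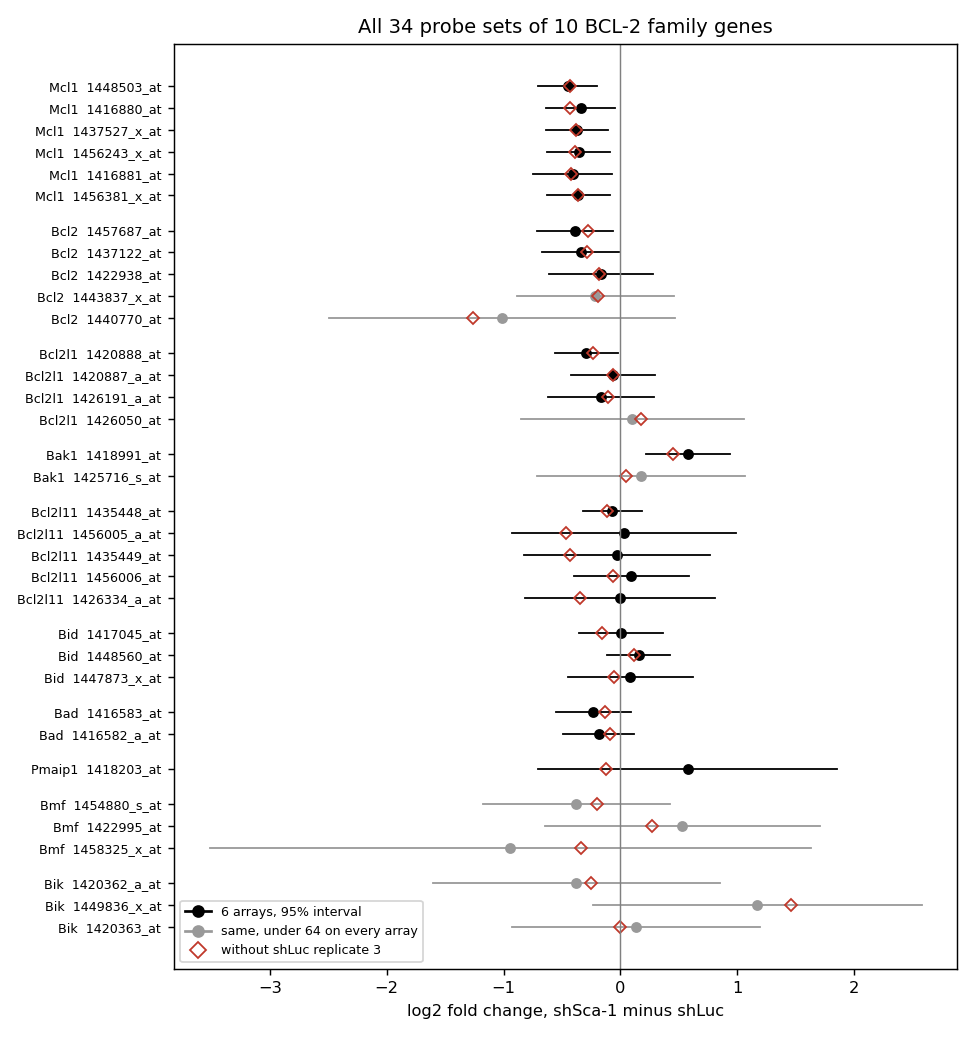
The 34 member probe sets by log2 fold change (shSca-1 minus shLuc, x axis). Filled points and bars are limma estimates with 95% intervals on 6 arrays, in grey where every array was under 64, and open red diamonds are estimates without shLuc replicate 3. The Mcl1 probe sets lie between -0.45 and -0.34, and Pmaip1 moves to -0.13 without that array.

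By role, 14 of the 15 survival probe sets had a log2 fold change below 0, and 9 of the 15 were lower without overlap. Of the 17 BH3-only probe sets, 8 had a log2 fold change below 0 and 0 were lower without overlap. Over all probe sets, 54.0% were below 0 and 9.81% lower without overlap. Without shLuc replicate 3 the survival counts were again 14 and 9 of 15, but 14 of the 17 BH3-only probe sets were then below 0 and 4 lower without overlap, those of Bcl2l11 (3) and Bid (1), beside 54.2% and 19.6% of all probe sets. Without that array the roles therefore differed little in the share below 0 (93.3% of survival and 82.4% of BH3-only probe sets). In the share lower without overlap they still differed, at 60% and 23.5%, against 60% and 0% on 6 arrays. Neither difference was tested. Of the 9 survival probe sets lower without overlap, 6 were of Mcl1, 2 of Bcl2 and 1 of Bcl2l1. The Bmf and Bik probe sets among the 17 were under 64 on every array. The shares by role are therefore shares of probe sets and rest largely on 1 gene. The median over the 34 was -0.168 on the log2 scale, beside -0.034 over all probe sets tested. After quantile normalization 8 of the 34 were lower without overlap and 2 higher, beside 8.03% and 9.69% of all probe sets. With array medians subtracted 6 were lower and 3 higher, beside 7.31% and 9.83%. Over all probe sets without overlap, 59.4% were lower in the deposited values, 45.3% under quantile normalization and 42.7% with array medians subtracted. Mcl1 and Bcl2 remained among the lower genes and Bak1 among the higher in each.

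Of 82 other genes of cell death and of its control in 6 lists, 69 had a probe set of their own, and none passed an adjusted p under 0.05 in limma on 6 arrays, while 2 were higher and 6 lower at an unadjusted p under 0.05, beside 3.57% and 7.05% of all genes by their brightest probe set. With the study's limits of 0.01 for the unadjusted p and 1.5 for the fold, 1 was higher and 3 were lower in limma, beside 2.05% of all genes. By the methods' t-test, and with intensities under 64 set to 64, 3 genes passed and Ddit3 did not. When shLuc replicate 3 was left out, 6 of the 69 passed an adjusted p under 0.05 in limma, beside 3.9% of all genes. No member passed these thresholds, beside 1.83% of all probe sets. The lists had medians on the log2 scale of 0.14 for 10 other BCL-2 family genes, 0.015 for 13 caspases and mitochondrial death factors, -0.08 for 5 inhibitors of apoptosis, 0.172 for 9 death receptor genes, -0.119 for 14 transcription factors and 0.095 for 18 kinases, ligases and partners of BCL-2 proteins.

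Birc3, which encodes the inhibitor of apoptosis cIAP2, a target of NF-kB, was the gene past these thresholds with higher values. Its intensity was 288, 308 and 304 in shSca-1 cells, against 140, 129 and 85.3 in shLuc cells. The groups were far apart, with a log2 fold change of 1.38 (SE 0.20, limma adjusted p = 0.11), and of 1.16 without shLuc replicate 3 (limma adjusted p = 0.0050). Birc5, the gene of survivin, was the other inhibitor of apoptosis that passed an adjusted p under 0.05 without that array (log2 fold change 0.57, limma adjusted p = 0.0084), against 0.20 on 6 arrays. Birc5 was 2605, 2665 and 2573 in shSca-1 cells, against 1798, 1718 and 3802 in shLuc cells. On 6 arrays its groups thus overlapped, and shLuc replicate 3 was the highest array. It was picked after seeing its values.

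Ddit3, Creb1 and Pim3 had lower values. Ddit3 encodes CHOP, a stress-induced factor known to raise Bcl2l11, and was 199, 246 and 288 in shSca-1 cells, against 703, 740 and 400 in shLuc cells. Its log2 fold change was -1.29 (SE 0.26, limma adjusted p = 0.22). Creb1, which encodes a cyclic AMP-responsive factor known to act on Bcl2 and Mcl1, was 364, 416 and 478 in shSca-1 cells, against 816, 749 and 678 in shLuc cells. Its log2 fold change was -0.84 (SE 0.14, limma adjusted p = 0.15). Pim3, a kinase that phosphorylates BAD, was 190, 185 and 172 in shSca-1 cells, against 360, 345 and 319 in shLuc cells. Its log2 fold change was -0.90 (SE 0.12, limma adjusted p = 0.092). None of these genes had overlapping groups. Without shLuc replicate 3 the log2 fold changes of Ddit3, Creb1 and Pim3 were -1.58, -0.91 and -0.95, and each was past 0.05 (limma adjusted p = 0.0051, 0.014 and 0.0087). Stat3, which encodes a cytokine-activated factor known to act on Mcl1 and Bcl2l1, was the remaining gene past 0.05 there and was picked after seeing its values. It was 931, 939 and 1054 in shSca-1 cells, against 1357, 1295 and 1731 in shLuc cells. Its log2 fold change was -0.57 on 6 arrays (unadjusted p = 0.0036, limma adjusted p = 0.28) and -0.45 without shLuc replicate 3 (limma adjusted p = 0.037).

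**Figure D5:**
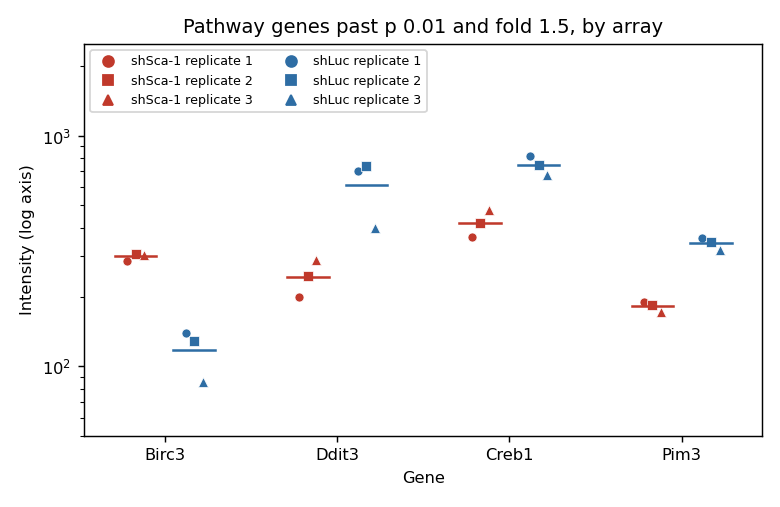
Intensity of Birc3, Ddit3, Creb1 and Pim3 on the 6 arrays (log axis). Each point is an array, with shSca-1 in red and shLuc in blue, and bars are means of 3 arrays. Birc3 lies between 288 and 308 on the shSca-1 arrays and between 85.3 and 140 on the shLuc arrays, and the other genes lie lower in shSca-1 cells.

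Of the other BCL-2 family genes, 10 of 15 were measured, and none passed the study's thresholds. Bcl2l2, the gene of the survival protein BCL-w, came closest and was picked after seeing its values. It was 169, 181 and 195 in shSca-1 cells, against 250, 232 and 254 in shLuc cells, without overlap, a log2 fold change of -0.43 (SE 0.12, unadjusted p = 0.010, adjusted p = 0.36). Bok, a relative of Bak1 also picked after seeing its values, was 866, 1075 and 950 in shSca-1 cells and 1213, 1110 and 167 in shLuc cells, with the low value on shLuc replicate 3 as for Pmaip1.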

How the data were processed

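RNA of 6 samples of the Wnt1-YL mouse mammary tumor line was hybridized to Affymetrix arrays, 3 per shRNA. The deposited values are linear intensities that the authors computed with dChip (PM-MM model, invariant set normalization), and 1.12% of them are exactly 1. The software version and genome build are not given in the sources used here. After raising values under 1 to 1 and taking log2, 64 control probe sets were removed, with no other filter. shSca-1 was compared with shLuc by limma 3.58.1 (lmFit, eBayes with a variance trend) under R 4.3.3, with Benjamini-Hochberg adjustment over 45037 probe sets. limma was also run on simulated data with known changes. Their spread was drawn independently for each array, so they hold no array that stands apart as shLuc replicate 3 does.

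Probe sets were named by the array's annotation table, with symbols updated through Entrez identifiers. Of those tested, 34945 had 1 symbol, 932 several and 9160 none. Ly6a has no symbol in that table and its probe set was identified from the study's probe list. A list gene is given by its brightest probe set, and members by all of theirs. The named genes are the members, Ly6a and up to 3 genes of each list past an unadjusted p under 0.01 and a fold over 1.5. The members and the 12 lists were chosen with earlier results of these data known. The replicates are called biological in the labels, but separate cultures are not stated, so p-values measure the spread between these samples. Precision is limited by the number of arrays. Same-numbered arrays deviated from their group means with correlations of -0.043, -0.02 and -0.029, so replicates were not paired. Promoters came from RefSeq tables (GRCm38.p6), and those of 8 of the 10 members were used here. The alternatives were quantile normalization, array medians subtracted, floors of 16 and 64, a filter at the 40 percentile, no variance trend, robust variance, the methods' t-test, a replicate block, other summaries of probe sets and each array left out.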

Additional observations from a re-analysis of the deposited data

How the results depend on the processing

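Of 189 log2 fold changes of the 10 members under alternative settings, 175 kept their direction and their side of an adjusted p of 0.05 (or stayed within 1 SD where there was no test). Bid was -0.155 without shLuc replicate 3, -0.082 and -0.112 with quantile normalization or median subtraction besides, and -0.009 by arithmetic means, against 0.007, and leaving out 1 array gave -0.155 to 0.092. Pmaip1 was -0.125 without shLuc replicate 3, and -0.064 and -0.083 with those scalings besides, with a range of -0.125 to 0.964 when 1 array was left out. The mean of all probe sets gave 0.006 for Bcl2l11, -0.104 for Bcl2l1, 0.38 for Bak1 and 0.31 for Bik.

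Leaving out shLuc replicate 3 and changing the scaling were combined after seeing the data. With quantile normalization, Mcl1 then passed in limma on 2 probe sets (-0.385 on the brightest, adjusted p = 0.041), and with medians subtracted Bak1 did on 1 (0.495, adjusted p = 0.048). With all arrays, Bak1 was the 1 probe set past an unadjusted p under 0.01 and a 1.5-fold difference after quantile normalization and after median subtraction, and leaving out 1 array gave 0 to 1, the 1 being Bak1 without shLuc replicate 2. The 11 member probe sets without overlap became 13 to 17 when 1 array was left out, 17 being without shLuc replicate 1, while the share of all probe sets was 24.1% to 33.6%, against 16.5% on 6 arrays. The 4 other pathway genes past these thresholds were 7 without shLuc replicate 3 and with medians subtracted, 4 to 6 when 1 array was left out, and 3 (without Ddit3) by the methods' t-test and with intensities under 64 set to 64. With a replicate block the 3 counts from limma were 0, 0 and 4, and it changed no call. The cause of these changes was not tested.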
